A study of Rattus norvegicus with 6 samples.

Results

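miR-122 is a microRNA (miRNA) processed from a single hairpin precursor into the 5p and 3p arms. The rows described here are the table entries whose name begins with rno-miR-122-, and there were 2 of them, rno-miR-122-5p and rno-miR-122-3p, among the 764 rat entries of the table, 570 of them detected in at least 1 library. They were chosen by the level and share of rno-miR-122-5p in these libraries, the highest of all entries and higher in the knockout, so the levels, shares, arm ratio and their differences by genotype are given as a description without a test. The tested libraries were 3 from HO-1 knockout (HO-1-/-) rats, set against 3 from wild type (WT) rats, all male Sprague Dawley. HO-1 is heme oxygenase 1, the inducible enzyme that degrades heme. In every animal the left testicle had been twisted by 720° for 2 h and untwisted, and tissue was taken after 3 days of reperfusion, so knockout and wild type share the injury and no uninjured library was analysed here. The labels give the tissue as testicle and the cell type as testis cell, and do not say whether a library stands for 1 animal, so any p-value here reflects the spread among these libraries alone, which may be technical. The markers below go against the tissue label: miR-122-5p led every library and testis miRNAs were low, so the levels are those of libraries labelled testicle, whose tissue of origin is in question. HO-1 messenger RNA is not measured by these libraries, so the knockout label could not be checked.

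miR-122 is the characteristic miRNA of hepatocytes, where it is the most abundant species in adult liver and is transcribed under the control of liver-enriched transcription factors. It represses targets in cholesterol and fatty acid metabolism and in iron handling, and it is bound by hepatitis C virus RNA, whose replication it aids. Its release into plasma is a measure of liver injury in rodents and humans. Known testis miRNAs include germ cell and Sertoli cell species such as miR-34c and miR-202.

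The hairpin is shown because both arms come from 1 transcript and can be compared within a library. In RefSeq (build GRCr8) it lies at chr18:61028817-61028901 on the plus strand, with the arms in capitals and the sequence 5′ to 3′.
miR-122 hairpin: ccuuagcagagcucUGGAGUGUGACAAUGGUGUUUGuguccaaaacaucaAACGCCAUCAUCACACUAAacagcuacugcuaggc
The mature forms and the opposite-strand miR-3591 are shown with the seed, bases 2 to 8, in capitals, because the seed sets target choice and because miR-3591 covers the same bases as miR-122-5p.
miR-122-5p: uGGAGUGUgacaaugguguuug
miR-122-3p: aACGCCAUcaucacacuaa
miR-3591: aACACCAUugucacacucca
In this annotation miR-122-5p is at chr18:61028831-61028852 and miR-122-3p at chr18:61028867-61028885. miR-3591 is at chr18:61028831-61028850 on the minus strand. The precursor lies inside a transcribed pseudogene, LOC134482951, between the coding genes Nedd4l and Alpk2.

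The 85-base hairpin was predicted by RNAfold to have a minimum free energy of -42.6 kcal/mol, with 15 of the 22 bases of miR-122-5p paired to bases of the 19-base miR-122-3p. Of the 689 table entries with a RefSeq mature sequence, 0 others shared the seed of miR-122-5p and 0 others that of miR-122-3p. Entries without a sequence were not compared. All 20 bases of miR-3591 are complementary to miR-122-5p. miR-3591 had 0 reads in each of the 6 libraries, which allows up to 0.299 to 0.361 RPM (reads per 1000000 assigned reads) per library at 3 reads, for counting error only.

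miR-122-5p, the arm known to act in liver, was the most abundant entry in all 6 libraries. It stood at 463696, 402452 and 436548 RPM in knockout libraries 1 to 3, against 326912, 362709 and 365528 RPM in wild type libraries 1 to 3. Every knockout library was above every wild type library, with knockout library 2 closest to the wild type and wild type library 1 the lowest of all. The share of reads averaged 43.4% ± 3.1 in the knockout and 35.2% ± 2.2 in the wild type (SD, n = 3 each), 8.25 percentage points apart and 1.23-fold higher in the knockout. The log2 difference of log2(RPM + 1) was 0.30 (SE 0.09 from limma, a linear model fitted to all 570 entries).

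The 3283074 to 3947677 reads per library behind miR-122-5p make counting error small beside the spread between libraries. Counting alone gives a coefficient of variation of at most 0.0552%, against 7.07% between knockout libraries and 6.12% between wild type libraries. The exact 95% binomial interval of the share was 46.34% to 46.40% in knockout library 1 and 32.66% to 32.72% in wild type library 1. PCR copies are not removed from such counts, so these intervals cover counting error only.

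Every knockout library above every wild type library is a pattern that 25 of the 570 entries showed, 4.39%, and the opposite pattern was shown by 123 entries, 21.6%. limma called 36 of the 570 entries at a Benjamini-Hochberg adjusted p below 0.05, 6.32%, and 0 of the 2 arms of miR-122 were among them. Nothing is read from that count, since the arms were chosen with these values known. In the authors' deposited table the log2 fold change, knockout over wild type, was 0.30 for miR-122-5p and -0.10 for miR-122-3p.

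**Figure D1:**
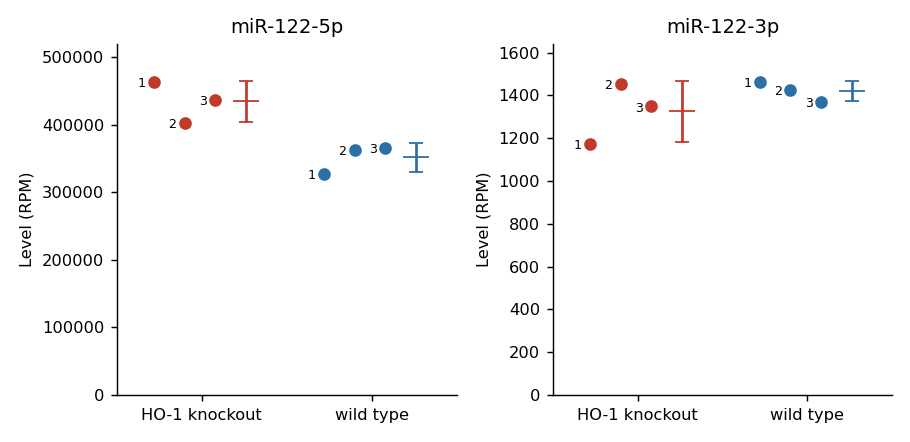
Level in RPM of miR-122-5p (left) and miR-122-3p (right) in each library, knockout left of wild type, with the library number beside each point and the mean ± SD (n = 3) at the right of each group. The knockout points of miR-122-5p lie between 402452 and 463696 RPM, above the wild type points, while those of miR-122-3p overlap the wild type.

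miR-122-3p, the strand that is mostly degraded after the duplex is opened, was far less abundant and did not follow the order of miR-122-5p. It stood at 1174, 1455 and 1350 RPM in knockout libraries 1 to 3, against 1465, 1426 and 1370 RPM in wild type libraries 1 to 3. The groups overlapped, knockout library 1 was the lowest and wild type library 1 the highest. The mean was 1326 ± 142 RPM in the knockout and 1420 ± 47 RPM in the wild type (SD, n = 3 each), with a log2 difference of -0.10 (SE 0.11).

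It ranked 36 of all entries in each knockout library, and 40, 37 and 38 in wild type libraries 1 to 3, from 9744 to 14708 reads per library. Counting alone gives it a coefficient of variation of at most 1.01%, against 10.7% between knockout libraries and 3.34% between wild type libraries. Knockout library 1 carried much of the difference, and without it the log2 difference of miR-122-3p was -0.02.

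Within each genotype the order of the libraries by miR-122-5p was the reverse of their order by miR-122-3p. Among the knockout libraries, library 1 had the most miR-122-5p and the least miR-122-3p, and library 2 the least miR-122-5p and the most miR-122-3p. Among the wild type libraries, library 3 had the most miR-122-5p and the least miR-122-3p, and library 1 the reverse. RPM values of a library share 1 total, so a larger miR-122-5p lowers every other RPM value in it, and this order alone does not show a change in the amount of miR-122-3p.

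When miR-122-5p was left out of the totals, miR-122-3p stood at 2189, 2435 and 2395 per 1000000 of the remaining reads in knockout libraries 1 to 3, against 2176, 2237 and 2160 in wild type libraries 1 to 3. The mean was then 2340 ± 132 in the knockout and 2191 ± 41 in the wild type (SD, n = 3 each), and the log2 difference was 0.09 (SE 0.08), of the opposite sign to that over the whole total. Knockout library 1 lay below wild type library 2, so the groups still overlapped. On the same footing there were 0.865, 0.674 and 0.775 reads of miR-122-5p per read of any other miRNA in knockout libraries 1 to 3, against 0.486, 0.569 and 0.576 in wild type libraries 1 to 3.

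The ratio of the arms does not depend on the library total. miR-122-5p exceeded miR-122-3p by 395, 277 and 323 times in knockout libraries 1 to 3, against 223, 254 and 267 times in wild type libraries 1 to 3. All knockout ratios were above all wild type ratios, and knockout library 2 exceeded wild type library 3 by little. The mean ratio was 332 ± 60 in the knockout and 248 ± 22 in the wild type (SD, n = 3 each), and the log2 ratio differed by 0.41 (SE 0.17), a factor of 1.33. With any single library left out the difference in log2 ratio was between 0.27 and 0.53, lowest without knockout library 1.

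Put as a share of the reads of both arms, miR-122-3p made up 0.253%, 0.36% and 0.308% in knockout libraries 1 to 3, against 0.446%, 0.392% and 0.373% in wild type libraries 1 to 3. The exact 95% binomial interval was 0.248% to 0.258% in knockout library 1 and 0.439% to 0.453% in wild type library 1. The libraries of each genotype differ by more than these intervals, so the depth does not limit the comparison and the spread between libraries does.

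A change of arm ratio of this size was common in the table. Among 85 precursors with both arms at 1 RPM or more in every library, the ratio of 5p to 3p was higher in all knockout libraries for 16, miR-122 included, 18.8%, and lower in all of them for 17, 20%. The size of the difference was larger than that of miR-122 in 31 of the 84 others, and its median over the 85 precursors was 0.27 on the log2 scale. The largest rise was that of miR-99a, at 0.97 (SE 0.16), and the largest fall that of miR-674, at -1.28 (SE 0.27). Their rarer arms fell to 2.05 RPM in miR-99a and 20.4 RPM in miR-674, against 1174 RPM in miR-122. Of the 14 precursors with both arms at 100 RPM or more in every library, miR-122 included, 4 had a larger difference than miR-122. These are descriptions with no test.

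miR-122 was among the precursors most skewed to the 5p arm. Its mean log2 ratio over the 6 libraries was 8.15, and 6 of the 84 others had a larger one, namely miR-21 (13.99), miR-192 (11.84), miR-99a (11.49), let-7i (10.48), miR-26b (8.67) and miR-146a (8.17). The rarer arm of these 6 was low, from 1.27 RPM in miR-21 to 13.4 RPM in miR-26b in its lowest library. The 1 RPM added to both arms lowers such ratios. The 5p arm was the more abundant in 50 of the 85 precursors and the 3p arm in 35, and the median size of the log2 ratio was 3.93.

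**Figure D2:**
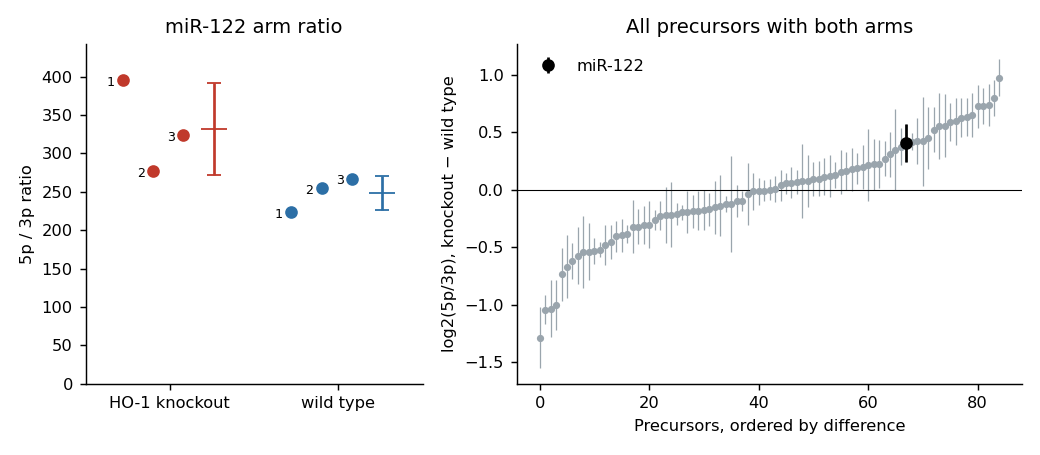
Left, the ratio of miR-122-5p to miR-122-3p in each library with the mean ± SD (n = 3), knockout left of wild type. Right, the knockout minus wild type difference of the log2 ratio of 5p to 3p with its SE for each of 85 precursors in rising order, where miR-122 (black, 0.41) lies among the higher values but not at the end.

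The rest of each library was made up around miR-122-5p. The second most abundant entry in every library was miR-148a-3p, a miRNA abundant in liver and other tissues, and miR-122-5p exceeded it by 5.41, 3.77 and 4.79 times in knockout libraries 1 to 3, against 2.77, 3.5 and 3.08 times in wild type libraries 1 to 3. The 9 entries after miR-122-5p held 39.2% ± 1.9 of the reads in the knockout and 44.1% ± 0.9 in the wild type, and all entries after those 17.4% ± 1.2 and 20.7% ± 1.5 (knockout, then wild type; SD, n = 3 each).

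The effective number of miRNAs, the exponential of the Shannon entropy, was 12.2 ± 1.2 in the knockout and 15.9 ± 1.3 in the wild type with miR-122-5p counted. With it left out, the number was 24.2, 24.7 and 25.03 in knockout libraries 1 to 3, against 27.1, 26.5 and 24.8 in wild type libraries 1 to 3. These groups overlapped, and an exact two-sided permutation test of 3 against 3 libraries gave p = 0.2, where 0.1 is the smallest possible.

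**Figure D3:**
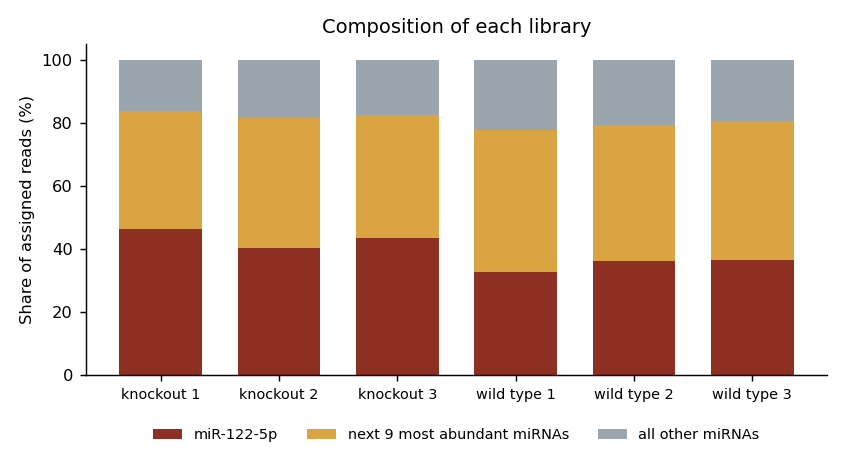
Share of assigned reads in each library held by miR-122-5p, by the 9 next most abundant miRNAs together and by all other miRNAs, knockout libraries left of wild type. miR-122-5p takes 40.2% to 46.4% in the knockout and 32.7% to 36.6% in the wild type.

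A higher share of miR-122-5p lowers the RPM of all other entries by the same factor. The reads left for other miRNAs were 56.6% in the knockout and 64.8% in the wild type, which by arithmetic lowers every other entry by 0.20 on the log2 scale (difference -0.20). Over the 216 other entries with a mean of at least 10 RPM the median log2 difference was -0.29, and 163 of them, 75.5%, were below 0. With miR-122-5p left out of the totals the median was -0.10 and 131, 60.6%, were below 0. TMM scaling, which sets most entries as unchanged, gave a median of -0.07.

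The direction of the calls moved with this choice. Over the whole total, limma called 4 entries higher and 32 lower in the knockout at the same threshold, 0.702% and 5.61% of 570. With miR-122-5p left out of the totals, 16 were called higher and 28 lower, 2.81% and 4.92% of 569. The 2 sets shared 32 entries. The 12 entries called only without miR-122-5p were all higher, and the 4 called only over the whole total were all lower.

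Among the 12 were miR-21-5p, a miRNA induced by tissue injury, and miR-142-3p, of blood leukocytes. miR-21-5p stood at 75400, 80510 and 77086 RPM in knockout libraries 1 to 3, against 72014, 70803 and 67667 RPM in wild type libraries 1 to 3. Its log2 difference was 0.15 over the whole total (SE 0.07, limma adjusted p = 0.32) and 0.34 without miR-122-5p (SE 0.07, limma adjusted p = 0.025). That call was kept in 1 of 6 fits with a library left out, the one lacking wild type library 2 (limma adjusted p between 0.044 and 0.097). The other arm, miR-21-3p, was rare, at 1.27 RPM in its lowest library, and was also among the 12. Its log2 difference was 1.15 over the whole total (limma adjusted p = 0.051) and 1.43 without miR-122-5p (limma adjusted p = 0.026). miR-142-3p had a log2 difference of 0.62 without miR-122-5p (limma adjusted p = 0.019), and its call was lost on leaving out any knockout library or wild type library 1 (limma adjusted p up to 0.074).

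Among the 4 were miR-126a-3p, of endothelial cells, and miR-194-5p, of liver, gut and kidney. miR-126a-3p had a log2 difference of -0.39 over the whole total (limma adjusted p = 0.030) and -0.19 without miR-122-5p (limma adjusted p = 0.19), and its call over the whole total was kept in 1 of 6 fits with a library left out, the one lacking knockout library 2. The other arm, miR-126a-5p, was called lower over both totals. Its log2 difference was -0.77 over the whole total (limma adjusted p = 0.016) and -0.58 without miR-122-5p (limma adjusted p = 0.019). The entries with the smallest adjusted p kept their call in both fits. Without miR-122-5p, miR-29b-3p, miR-375-3p and miR-674-3p rose, with log2 differences of 1.11 (SE 0.12), 1.52 (SE 0.17) and 1.00 (SE 0.14) and limma adjusted p of 0.0028, 0.0030 and 0.0088. miR-31a-5p, miR-221-3p and miR-200b-3p fell, with log2 differences of -1.06 (SE 0.09), -1.96 (SE 0.20) and -1.73 (SE 0.21) and limma adjusted p of 0.0019, 0.0028 and 0.0033. Of these 6, miR-674-3p lost its call without knockout library 2 (limma adjusted p = 0.056), and the other 5 were called with any single library left out.

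These counts rest on few libraries. Without miR-122-5p in the totals, 7, 6 and 9 entries were called when knockout library 1, 2 or 3 was left out, and 23 when wild type library 1 was. Over the whole total the counts were 13, 21 and 5 without knockout libraries 1 to 3, and 17 without wild type library 2.

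**Figure D4:**
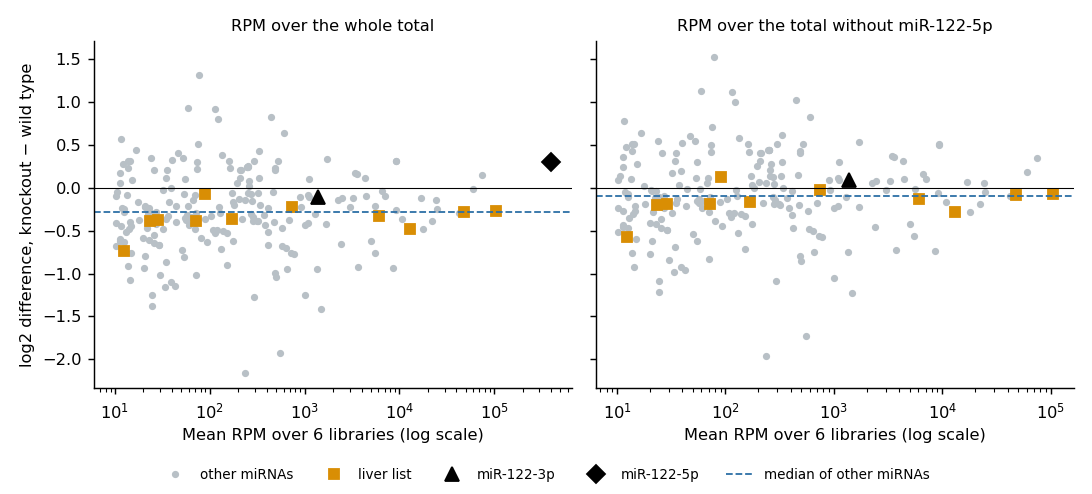
The knockout minus wild type log2 difference of log2(RPM + 1) against mean RPM (log scale) for entries of at least 10 RPM, over the whole total (left) and over the total without miR-122-5p (right), with the liver list as squares, the arms of miR-122 in black and the median of the other entries dashed. The median lies at -0.29 on the left and at -0.10 on the right, where miR-122-3p is above 0.

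Among miRNAs known from liver, miR-148a-3p and miR-192-5p were abundant, and none of the listed entries was called higher in the knockout over either total. The list held 14 other entries, both arms of miR-192, miR-194, miR-148a, miR-101b, miR-802, miR-193a and miR-365, all of them above 0 in some library. Over the whole total 0 were called higher and 1 lower, miR-194-5p, beside 6.32% called over all entries. Without miR-122-5p in the totals 0 were called in either direction, beside 7.73%, though miR-194-5p was called lower when only entries of at least 10 RPM were fitted (limma adjusted p = 0.026). At an unadjusted limma p below 0.05 there were 6 over the whole total and 1 without miR-122-5p, and edgeR and DESeq2 on recovered reads called 0. The log2 difference was below 0 for 13 of the 14 over the whole total and for 12 of them without miR-122-5p. Its median was -0.35 and -0.18 in these fits, beside -0.29 and -0.10 for the 216 entries of at least 10 RPM other than miR-122. Those 216 include the liver entries at that level, while the 14 had no such cut, so these medians cover unlike sets.

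The summed level of the 14 entries was 142881, 168867 and 152377 RPM in knockout libraries 1 to 3, against 192042, 182756 and 191653 RPM in wild type libraries 1 to 3. Most of it was miR-148a-3p and miR-192-5p, while miR-365-5p and miR-101b-5p were below 1 RPM in every library. This sum was lower in every knockout library, while miR-122-5p was higher in every one. Per 1000000 of the reads other than miR-122-5p it was 273151 ± 8426 in the knockout and 291384 ± 9280 in the wild type (SD, n = 3 each). There the groups did not overlap either, at 266418 to 282600 in the knockout and 285315 to 302067 in the wild type. Over the whole total 123 of the 570 entries, 21.6%, were lower in every knockout library. That share was not counted without miR-122-5p.

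miR-192-5p, known from liver, kidney and gut, stood at 41157, 42569 and 44804 RPM in knockout libraries 1 to 3, against 50218, 55930 and 50672 RPM in wild type libraries 1 to 3. Its knockout values lay below its wild type values, with a log2 difference of -0.29 (limma adjusted p = 0.091) over the whole total and -0.09 (limma adjusted p = 0.66) without miR-122-5p. With only entries of at least 10 RPM fitted it was called lower over the whole total (limma adjusted p = 0.016). miR-194-5p, from the same clusters as miR-192, stood at 9654, 12408 and 10570 RPM in knockout libraries 1 to 3, against 15686, 14943 and 14742 RPM in wild type libraries 1 to 3. It fell over the whole total by 0.48 on the log2 scale (limma adjusted p = 0.038), a call lost without miR-122-5p in the totals, where the difference was -0.29 (limma adjusted p = 0.074). The call over the whole total was also lost on leaving out any wild type library, knockout library 1 or knockout library 3.

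miR-148a-3p averaged 94559 ± 10972 RPM in the knockout and 113404 ± 8466 RPM in the wild type, with a log2 difference of -0.27 (limma adjusted p = 0.21). miR-101b-3p averaged 5393 ± 549 RPM in the knockout and 6777 ± 251 RPM in the wild type, with a log2 difference of -0.33 (limma adjusted p = 0.098). miR-802-5p, of liver, kidney and pancreas, averaged 86.8 ± 10.1 RPM in the knockout and 93.1 ± 24.1 RPM in the wild type (SD, n = 3 each), with a log2 difference of -0.07 (limma adjusted p = 0.83) that was above 0 under other scalings. In the fits to all entries miR-148a-3p, miR-101b-3p and miR-802-5p did not pass over either total. With only entries of at least 10 RPM fitted, miR-101b-3p was called lower over the whole total (limma adjusted p = 0.0497).

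Set against the 4 most abundant of these entries within a library, miR-122-5p was higher in the knockout each time. There were 11.3, 9.45 and 9.74 reads of miR-122-5p per read of miR-192-5p in knockout libraries 1 to 3, against 6.51, 6.49 and 7.21 in wild type libraries 1 to 3. Per read of miR-194-5p there were 40.6 ± 7.8 in the knockout and 23.3 ± 2.1 in the wild type, and per read of miR-101b-3p 81.3 ± 11.9 in the knockout and 52.0 ± 4.4 in the wild type (SD, n = 3 each). The groups did not overlap in these 3 ratios or in that to miR-148a-3p. Per read of the rarer miR-802-5p they did overlap, at 6014, 4678 and 4491 in knockout libraries 1 to 3, against 3286, 3196 and 5499 in wild type libraries 1 to 3. miR-122-5p was chosen as higher in the knockout, so these ratios are a description and show nothing particular to liver miRNAs. How many of all entries would give ratios without overlap was not counted for either arm.

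miR-122-3p showed a smaller difference on the same scale. Per read of miR-194-5p there were 0.122 ± 0.005 in the knockout and 0.0939 ± 0.0013 in the wild type, without overlap, and per read of miR-192-5p 0.0309 ± 0.0029 in the knockout and 0.0272 ± 0.0018 in the wild type, with overlap (SD, n = 3 each). Per read of miR-101b-3p the means were 0.247 in the knockout and 0.210 in the wild type, without overlap. The groups overlapped per read of miR-148a-3p, at means of 0.0140 in the knockout and 0.0126 in the wild type. They also overlapped per read of miR-802-5p, where the knockout mean was the lower, at 15.3 against 16.0.

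The markers of the labelled tissue were low beside miR-122. A list of germ cell, Sertoli cell and X-linked testis miRNAs held 35 entries, of which 17 were at 0 in every library and 18 were tested, and limma called 0 of these over either total, beside 6.32% and 7.73% of all entries, with 1 at an unadjusted p below 0.05 over the whole total and 0 without miR-122-5p. edgeR and DESeq2 on recovered reads also called 0. Their summed level was 29.03, 33.8 and 33.6 RPM in knockout libraries 1 to 3, against 56.3, 40.1 and 44.5 RPM in wild type libraries 1 to 3. The knockout sums lay below the wild type sums (exact two-sided permutation p = 0.1, the smallest that 3 against 3 libraries allow). They also did so with miR-122-5p left out of the totals, at 54.1 to 59.6 in the knockout and 62.9 to 83.6 in the wild type. Such an order was common: over the whole total 123 of the 570 entries, 21.6%, were lower in every knockout library. That share was not counted without miR-122-5p, so nothing particular to testis miRNAs is read from it. miR-34c-5p, found in germ cells during and after meiosis, was the most abundant, at 20.5 ± 1.8 RPM in the knockout and 30.7 ± 6.7 RPM in the wild type (SD, n = 3 each; limma adjusted p = 0.19). In bulk tissue, fewer cells of a type and less RNA per cell cannot be told apart.

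The mean of miR-122-5p was 13505 times the mean testis sum in the knockout and 7489 times in the wild type. The red blood cell list (miR-451, miR-144, miR-486) summed to 377 to 459 RPM in the knockout and 468 to 580 RPM in the wild type, and the leukocyte list (miR-142, miR-223, miR-150) to 820 to 935 RPM and 764 to 882 RPM (knockout, then wild type). Per 1000000 reads other than miR-122-5p, the leukocyte sums did not overlap, at 1456 to 1607 in the knockout and 1204 to 1325 in the wild type, and the red blood cell sums did, at 703 to 768 in the knockout and 695 to 910 in the wild type. Over that same total limma called 1 leukocyte entry, miR-142-3p, with a log2 difference of 0.62. The other leukocyte entries went both ways and were not called. They were at 0.49 (miR-223-5p), 0.17 (miR-150-3p), 0.14 (miR-142-5p), -0.10 (miR-150-5p) and -0.24 (miR-223-3p). The striated muscle list summed to 68.5 to 83.1 RPM in the knockout and 87.4 to 142.3 RPM in the wild type, the neural list to 22.3 to 23 RPM and 13.7 to 22.4 RPM, and the pancreas list to 99.4 to 124.2 RPM and 34.3 to 52.7 RPM, in the same order. With miR-122-5p left out of the totals, the muscle sums overlapped, at 121.6 to 155.0 in the knockout and 137.7 to 223.3 in the wild type. The neural sums, mostly miR-9a-5p (limma adjusted p = 0.16), then did not overlap. They were 37.4 to 42.9 in the knockout and 21.6 to 33.3 in the wild type. Over the whole total, 4.39% of the 570 entries were higher in every knockout library and 21.6% lower. That share was not counted without miR-122-5p, so nothing is read from the leukocyte and neural sums. In the pancreas list the sum was almost all miR-375-3p. The kidney list summed to 4586 to 5918 RPM in the knockout and 5482 to 6731 RPM in the wild type, almost all of it miR-10a-5p, which many tissues express. Against that sum, limma called 1 kidney entry, miR-196b-5p, higher over both totals, and no other. Its log2 difference was 1.29 over the whole total (limma adjusted p = 0.017) and 1.65 without miR-122-5p (limma adjusted p = 0.018). The part of these sources in the level of miR-122 was not tested.

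The 5 entries whose pattern over the 6 libraries was nearest to miR-122-5p were miR-363-3p, let-7d-5p, miR-142-3p, miR-140-5p and miR-671. Nearness was the root mean square difference of log2(RPM + 1), centred on its mean, over 217 other entries of at least 10 RPM. It was 0.064 for miR-363-3p, 0.094 for let-7d-5p, 0.11 for miR-142-3p, and 0.12 for both miR-140-5p and miR-671. miR-122-3p came in place 40 of 217, at 0.26, and none of the other liver entries of at least 10 RPM was among the 5. The rarer liver entries miR-101b-5p, miR-365-5p and miR-193a-3p were not compared.

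These neighbours were far less abundant than miR-122-5p itself. miR-363-3p, from an X-linked cluster, stood at 45.1, 44.1 and 43.8 RPM in knockout libraries 1 to 3, against 34.2, 34.8 and 36.5 RPM in wild type libraries 1 to 3. miR-142-3p stood at 390, 368 and 377 RPM in knockout libraries 1 to 3, against 282, 306 and 260 RPM in wild type libraries 1 to 3. In both, as in miR-122-5p, every knockout value was above every wild type value. All 5 were picked for a pattern that is high in the knockout, so their differences by genotype are a description and no support.

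The entries nearest to miR-122-3p were different ones, miR-29a-3p, miR-466c-5p, let-7b-5p, miR-185-5p and let-7g-5p, at 0.043, 0.059, 0.065, 0.067 and 0.078. The same 5 entries were nearest with miR-122-5p left out of the totals, in the same order. Like miR-122-3p, miR-29a-3p, a regulator of collagen genes, was lowest in knockout library 1 and highest in wild type library 1, with 3727, 4731 and 4469 RPM in knockout libraries 1 to 3, against 4823, 4366 and 4590 RPM in wild type libraries 1 to 3. Its log2 difference was -0.10 over the whole total (limma adjusted p = 0.64) and 0.10 without miR-122-5p (limma adjusted p = 0.60), so that its sign, like that of miR-122-3p, turned with the total. miR-122-5p came in place 132 of 217 in this order.

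**Figure D5:**
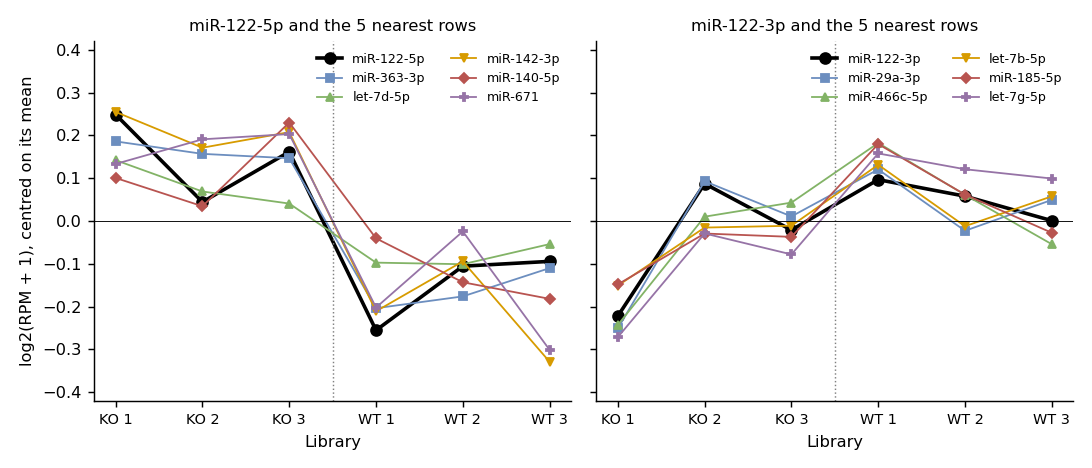
log2(RPM + 1) centred on its mean over the 6 libraries, knockout left of wild type, for miR-122-5p (left) and miR-122-3p (right, both in black) and for the 5 entries nearest to each, where lines only join the values of 1 entry. The values of miR-122-5p are above 0 in the knockout and below 0 in the wild type, and those of miR-122-3p are lowest in knockout library 1, at -0.22.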

How the data were processed

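Small RNA libraries from tissue labelled testicle, 3 from HO-1 knockout and 3 from wild type rats, were sequenced as single-end reads, per the labels' protocols. The authors deposited 1 table of RPM values, whose columns each sum to 1000000, with their mean RPM per genotype, a log2 fold change and a p-value, per the file headers. FastQC, BWA, edgeR and rn6 are named without role or version in the submitters' processing notes. The test behind that p-value and the rules for mismatches and repeated matches were not among the steps these notes name. Each sample column was matched by name, with 0 unmatched.

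The RPM values lie on steps of 1 read, from which reads were recovered. Between 97.8% and 98.9% of values above 0 lay within 0.0051 RPM of a whole read, against 8.47% to 10.2% by chance. In wild type library 1 the step, 0.0996 RPM, is so close to 0.1 that its total rests on higher values. Totals were 8300536 to 10042673 reads, averaging 9033564 ± 755155 in the knockout and 9549670 ± 461140 in the wild type (SD, n = 3 each).

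log2(RPM + 1) was modelled with limma 3.58.1, letting the variance follow the mean level, for entries above 0 in some library, 570 in all, with genotype as the only term. Such differences understate changes of rare miRNAs. Benjamini-Hochberg adjustment ran over all entries fitted, and 0.05 was the threshold. The same fit was made with miR-122-5p left out of the totals. edgeR 4.0.16 and DESeq2 1.42.0 on recovered reads, 3 other scalings, pseudocounts of 0.1 and 5, a mean of at least 10 RPM, a replicate block and each library left out were alternatives. The fits were tested on simulated data in which miR-122-5p was not changed, so that check does not cover the effect of its share on the calls. Sequences and coordinates are from RefSeq (GRCr8), not the build rn6, and the hairpin was folded with RNAfold 2.7.2. The rule for named miRNAs took both arms of miR-122, miR-3591, the most abundant entries, the 5 nearest to each arm, marker lists and the strongest calls without miR-122-5p. Not all of them are printed. The members, lists and tests were chosen with earlier results of these data known.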

Additional observations from a re-analysis of the deposited data

How the results depend on the processing

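The difference in miR-122-5p kept its direction under all alternatives tried, at 0.25 to 0.36 with single libraries left out. It was 0.53 with TMM scaling, 0.54 with RLE, 0.52 with the upper quartile, 0.50 with totals without it, 0.52 with edgeR and 0.54 with DESeq2. The difference in miR-122-3p was -0.17 to -0.02 with single libraries left out, but 0.12, 0.14, 0.11, 0.093, 0.11 and 0.13 in those 6 settings in the same order. The median of the other entries, -0.29 over the whole total, was -0.073 with TMM, -0.057 with RLE and -0.082 with the upper quartile, and -0.32 to -0.21 with single libraries left out. The arm ratio does not use the total.

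The count of 36 calls over the whole total was 22 with the replicate number as a block, 61 with edgeR, 72 with DESeq2 and 5 to 26 with single libraries left out. The 44 calls without miR-122-5p in the totals were 71 with DESeq2, 36 with the block and 6 to 35 with single libraries left out. The share called higher also moved with the scaling: 20 higher and 29 lower with TMM, against 4 and 32 over the whole total. Libraries with the same number shared deviations with r = 0.033, 0.176 and 0.204 (218 entries), and not every library correlated best with its own number, so the numbers were not taken to pair them.

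miR-802-5p, miR-29a-3p and let-7f-5p, below 0 over the whole total and not called, were above 0 in the 6 settings above. miR-802-5p was at 0.15, 0.17, 0.14, 0.12, 0.12 and 0.14, miR-29a-3p at 0.13, 0.14, 0.12, 0.10, 0.11 and 0.13, and let-7f-5p at 0.21, 0.22, 0.20, 0.18, 0.20 and 0.22. With single libraries left out they ranged over -0.30 to 0.086, -0.17 to 0.0028 and -0.041 to 0.011, and miR-802-5p without miR-122-5p in the totals over -0.085 to 0.29. The causes were not tested.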
